A study of Mus musculus with 6 samples.

Results

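Igf1, Slpi, Abcc3, Cadm1, Gatm and Glipr2 are 6 genes whose transcripts were high in splenic B cell preparations of mice with a defective Btk, a tyrosine kinase acting downstream of the B cell receptor. They were picked because at least 1 of their probe sets was high in Xid, in Btk KO or in both against wild type CBA, so their levels against CBA are a description of that choice and carry no test here. The array holds 12 probe sets for them among 12422 probe sets that are not controls, and 11 of the 12 passed a filter on dim probe sets. RNA of whole splenic B cells of adult mice was measured on 6 Affymetrix MG_U74Av2 arrays, 2 for each of 3 groups. The CBA group is the wild type. Xid mice are of the strain CBA/N and carry the R28C substitution in Btk. The Btk KO mice came from a knockout line on an SW129 background that had been crossed to CBA for 9 generations. Each group has 1 array in a first run and 1 in a second run made with new RNA from new mice, and values are given below in that order. No label tells how many animals gave each RNA, so p-values measure the spread between these samples. Effects of the Btk allele and of other genetic differences among these lines cannot be told apart.

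The 6 genes share no pathway. Igf1 encodes a secreted growth factor that acts through the receptor Igf1r, and macrophages are known to make it besides the liver. Slpi encodes a secreted inhibitor of the neutrophil serine proteases elastase and cathepsin G, known from mucosal epithelia, neutrophils and macrophages. Abcc3 is a membrane pump that exports organic anions such as glucuronide conjugates and bile salts. Cadm1 is an adhesion molecule of the immunoglobulin superfamily that binds itself and the T and NK cell receptor Crtam. Gatm is the mitochondrial amidinotransferase that carries out the first step of creatine synthesis, from arginine and glycine. Glipr2 is a CAP domain protein known to bind Golgi membranes.

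The upstream sequences of the genes are shown so that the windows can be read side by side. The genes were chosen as high in Xid, in Btk KO or in both against CBA, and their patterns over the groups differ. The RefSeq promoter table matched 4 of the 6 genes, and no window for Abcc3 or Cadm1 was used here. Each line gives the 250 bases before the annotated start, 5′ to 3′ along the gene's strand. Capitals mark matches on either strand to 1 of 5 motifs. The ETS type motif searched was GAGGAAG and the C/EBP type motif was TTGCNNAA. The CCAAT box was searched as those letters, the E-box as CACGTG, and the TATA box was searched as TATAAA. None of the matches in these windows overlap.
Igf1 (GRCm38.p6, chr10:87860861-87861110, plus strand): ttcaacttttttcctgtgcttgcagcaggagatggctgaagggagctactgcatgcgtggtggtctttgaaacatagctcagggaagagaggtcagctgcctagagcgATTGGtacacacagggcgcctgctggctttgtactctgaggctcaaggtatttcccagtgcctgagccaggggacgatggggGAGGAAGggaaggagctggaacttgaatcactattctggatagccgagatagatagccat
Slpi (GRCm38.p6, chr2:164356508-164356757, minus strand): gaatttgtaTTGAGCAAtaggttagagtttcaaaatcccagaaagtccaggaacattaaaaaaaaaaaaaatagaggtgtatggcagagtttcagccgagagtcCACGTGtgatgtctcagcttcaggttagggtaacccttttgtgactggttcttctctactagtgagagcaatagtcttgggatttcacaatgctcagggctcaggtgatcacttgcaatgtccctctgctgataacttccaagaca
Gatm (GRCm38.p6, chr2:122611278-122611527, minus strand): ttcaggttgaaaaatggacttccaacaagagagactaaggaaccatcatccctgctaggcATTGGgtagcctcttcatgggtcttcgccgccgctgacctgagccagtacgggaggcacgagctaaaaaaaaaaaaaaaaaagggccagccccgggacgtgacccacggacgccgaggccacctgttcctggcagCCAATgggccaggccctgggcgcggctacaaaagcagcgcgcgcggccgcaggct
Glipr2 (GRCm38.p6, chr4:43957452-43957701, plus strand): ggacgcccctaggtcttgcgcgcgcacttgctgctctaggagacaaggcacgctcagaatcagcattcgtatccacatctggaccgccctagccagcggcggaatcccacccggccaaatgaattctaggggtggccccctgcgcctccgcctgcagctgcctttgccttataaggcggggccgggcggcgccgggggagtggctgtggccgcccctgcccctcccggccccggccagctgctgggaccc
The Igf1 window held GAGGAAG from 60 to 54 bases before the start, a motif found in 10.6% of 32851 windows of this length in the table. It also held CCAAT on the reverse strand from 142 to 138 bases before the start, and Gatm had CCAAT at 55 to 51 bases and, on the reverse strand, at 190 to 186 bases. CCAAT was found in 33.8% of all windows. In Slpi, the C/EBP type motif lay on the reverse strand at 241 to 234 bases (9.56% of all windows) and the E-box at 146 to 141 bases (6.02%). TATAAA (12.4% of all windows) was in none of the 4, and the Glipr2 window held none of the 5 motifs. The 4 windows thus had no motif of this set in common, and the GC content ran from 42% in Slpi to 69.2% in Glipr2, against a median of 52.4% over all windows. A match describes letters only.

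The values had been scaled to a common level before deposit, and median intensities then ran from 32.5 to 37.6 in scaled units. Intensity for Btk itself was 874.1 and 749.8 for CBA, 841.0 and 643.9 for Xid, 276.1 and 173.6 for Btk KO. Against CBA it differed by -1.86 on the log2 scale in Btk KO (limma adjusted p = 0.052, and 0.0053 with the run as a block). No source used here places its probes against the deletion. The Btk KO array of the first run stood apart, with a 3′ to 5′ ratio of 10.4 for the Gapdh control probes against at most 1.61 elsewhere, and it was hybridised on a day of its own. For that reason the differences of the 6 genes from CBA are also given within the second run. With 2 arrays a group, precision is limited throughout.

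**Figure D1:**
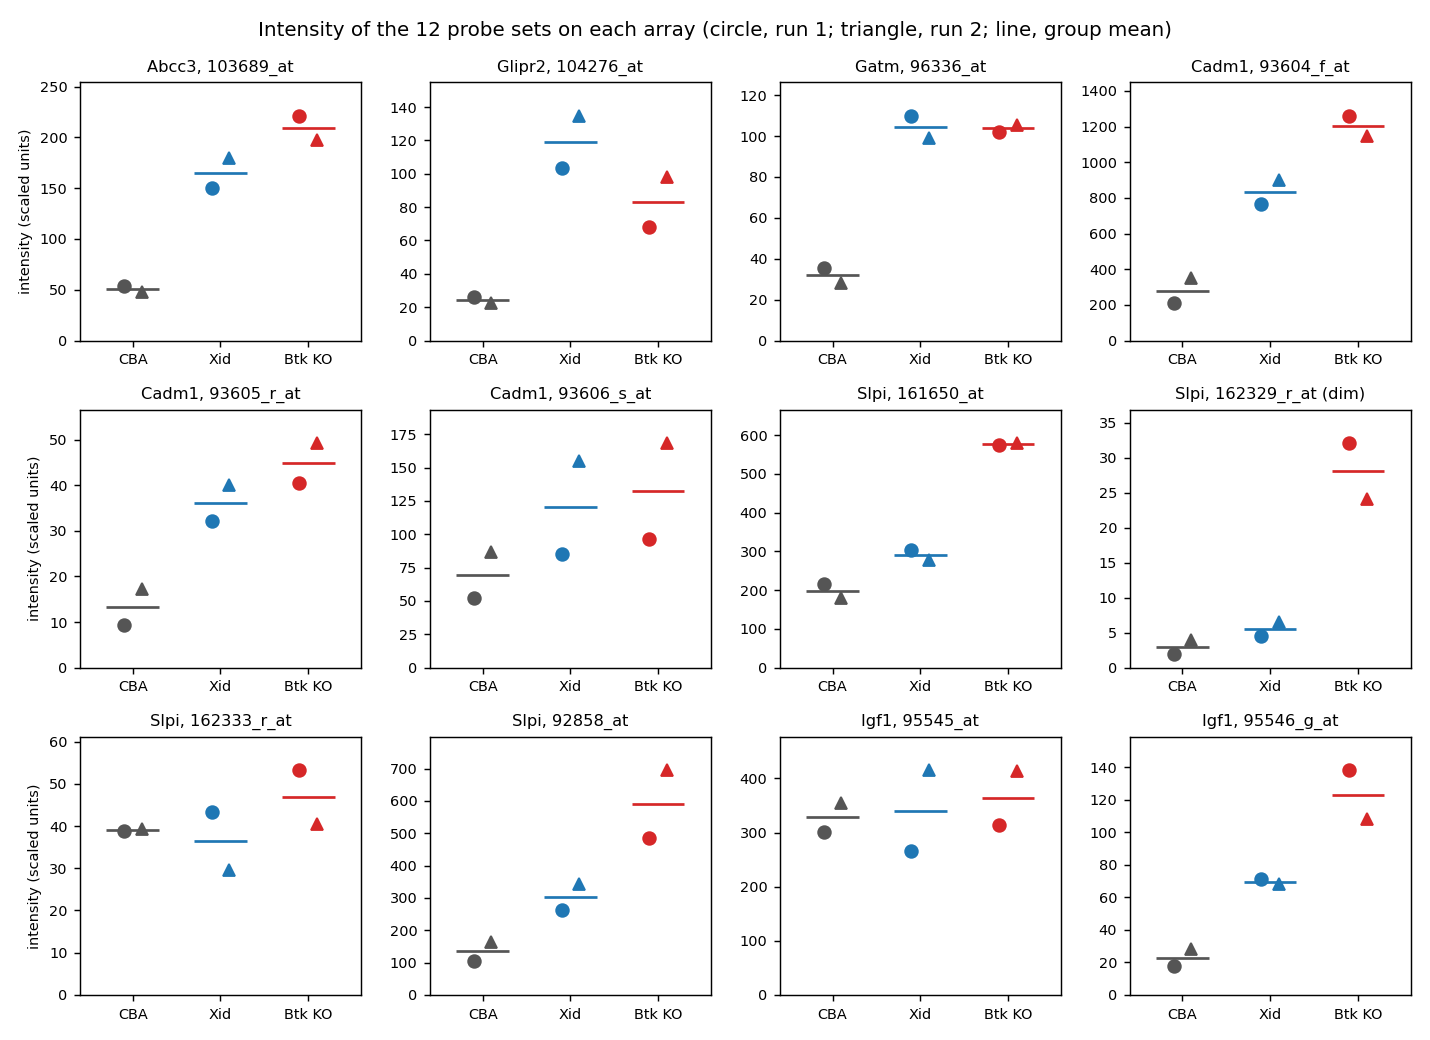
Intensity (scaled units, linear axes from 0) of the 12 probe sets on each of the 6 arrays; circles are run 1, triangles run 2 and lines group means of n = 2. In 9 panels both Xid arrays lie above both CBA arrays, while Igf1 95545_at and Slpi 162333_r_at show little separation between the groups.

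Igf1 gave different pictures on its probe sets. Probe set 95546_g_at read 17.8 and 28.0 in CBA, 71.3 and 68.0 in Xid and 138.1 and 108.3 in Btk KO. The 3 groups did not overlap, and the level stepped up from CBA to Xid to Btk KO. The means were 22.9 ± 7.21, 69.7 ± 2.33 and 123 ± 21.1 (SD, n = 2 each), 3.04-fold CBA in Xid and 5.38-fold in Btk KO. Probe set 95545_at, by contrast, read 301.3 and 354.6 in CBA, 265.7 and 414.9 in Xid and 314.8 and 414.3 in Btk KO. Here the groups overlapped, and the mean in Btk KO was 1.11-fold that of CBA. Both probe sets are annotated to the same database sequence, so the high level of Igf1 in the mutant lines rests on 1 of 2 probe sets. On the log2 scale after a pseudocount of 6, the first of them differed from CBA by 1.41 ± 0.28 (SE) in Xid and 2.17 ± 0.28 in Btk KO, and the other by 0.02 ± 0.27 and 0.14 ± 0.27. In the second run alone 95546_g_at differed by 1.12 in Xid and 1.75 in Btk KO. Its CBA mean lies near the level of 19.8 below which probe sets were left out as dim, and with a pseudocount of 32 the differences were 0.89 and 1.5.

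Slpi was high in Btk KO, with Xid between Btk KO and CBA on 3 of its 4 probe sets. Probe set 161650_at read 215.1 and 180.7 in CBA, 303.4 and 278.3 in Xid and 574.3 and 579.0 in Btk KO. Probe set 92858_at read 105.8 and 164.7 in CBA, 262.2 and 341.7 in Xid and 484.6 and 694.8 in Btk KO. On both, all 3 groups were apart in the order CBA, Xid, Btk KO. The Xid mean was 1.47-fold CBA on the first and 2.23-fold on the second, and the Btk KO mean 2.91-fold and 4.36-fold. The log2 differences were 0.55 ± 0.19 and 1.14 ± 0.29 in Xid, and 1.52 ± 0.19 and 2.09 ± 0.29 in Btk KO (SE). In the second run alone they were 0.61 and 1.03 in Xid and 1.65 and 2.04 in Btk KO. A further, dim probe set, 162329_r_at, read 1.9 and 3.9 in CBA, 4.6 and 6.5 in Xid and 32.1 and 24.1 in Btk KO, so a level above the dim range was seen in Btk KO alone among these arrays. The fourth, 162333_r_at, read 38.8 and 39.4 in CBA, 43.4 and 29.7 in Xid and 53.2 and 40.5 in Btk KO. There the Xid arrays lay on both sides of CBA, and the Btk KO mean was 1.20-fold that of CBA. The suffix r marks probe sets picked under relaxed design rules.

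Abcc3, the organic anion pump, has 1 probe set. It read 53.4 and 47.8 in CBA, 149.8 and 179.9 in Xid and 221.0 and 197.3 in Btk KO. No groups overlapped, and both mutant lines were far above the spread of CBA. The means were 50.6 ± 3.96, 165 ± 21.3 and 209 ± 16.8 (SD, n = 2), so Xid stood at 3.26-fold and Btk KO at 4.13-fold CBA. The log2 difference was 1.59 ± 0.21 in Xid and 1.93 ± 0.21 in Btk KO (SE). Within the runs it was 1.39 and 1.79 in Xid and 1.93 and 1.92 in Btk KO.

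Cadm1, the adhesion molecule, is read by 3 probe sets, all of types whose probes may match related sequences or were picked under relaxed rules. Probe set 93604_f_at read 210.7 and 348.7 in CBA, 768.2 and 903.0 in Xid and 1259.5 and 1148.8 in Btk KO. The groups were apart, though the CBA arrays themselves differed by a wide margin. Xid stood at 2.99-fold and Btk KO at 4.30-fold CBA. Probe set 93605_r_at kept the same order at a dim level, with 9.4 and 17.3 in CBA, 32.1 and 40 in Xid and 40.4 and 49.2 in Btk KO. Its CBA mean of 13.35 is below the filter level of 19.8, so it passed the filter only through the mutant arrays. Probe set 93606_s_at read 52.6 and 86.4, then 85.3 and 154.9, then 96.8 and 168.3, and there Xid overlapped CBA. On this last set the second run was brighter than the first in all 3 groups, so within a run the mutants were above CBA, by 0.64 and 0.80 on the log2 scale in Xid and by 0.81 and 0.92 in Btk KO. For 93604_f_at the Xid difference was 1.84 in the first run and 1.36 in the second, and the Btk KO difference 2.55 and 1.70. Without the CBA array of the first run the latter was 1.77 and without that of the second 2.48.

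Gatm, of creatine synthesis, stood at the same level in both mutant lines. Its 1 probe set read 35.7 and 28.2 in CBA, 109.8 and 99.2 in Xid and 102.2 and 105.2 in Btk KO. Both lines lay above CBA, and the Btk KO arrays fell inside the range of the Xid arrays. The means were 31.9 ± 5.30, 104 ± 7.50 and 104 ± 2.12 (SD, n = 2), 3.27-fold and 3.25-fold CBA. The log2 differences from CBA were 1.55 ± 0.24 and 1.54 ± 0.24 (SE), and in the second run alone 1.62 and 1.70.

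Glipr2, the CAP domain protein, was the 1 gene of the 6 with both Xid arrays above both Btk KO arrays. Its 1 probe set read 26.3 and 22.6 in CBA, 103.6 and 134.6 in Xid and 67.8 and 98.0 in Btk KO. Both Btk KO arrays lay between CBA and Xid. The Xid mean of 119 ± 21.9 was 4.87-fold that of CBA, 24.4 ± 2.62, and the Btk KO mean of 82.9 ± 21.4 was 3.39-fold (SD, n = 2). On the log2 scale the differences were 2.03 ± 0.28 and 1.53 ± 0.28 (SE). In the second run alone they were 2.30 and 1.86. With a pseudocount of 32 they were 1.41 and 1.01.

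**Figure D2:**
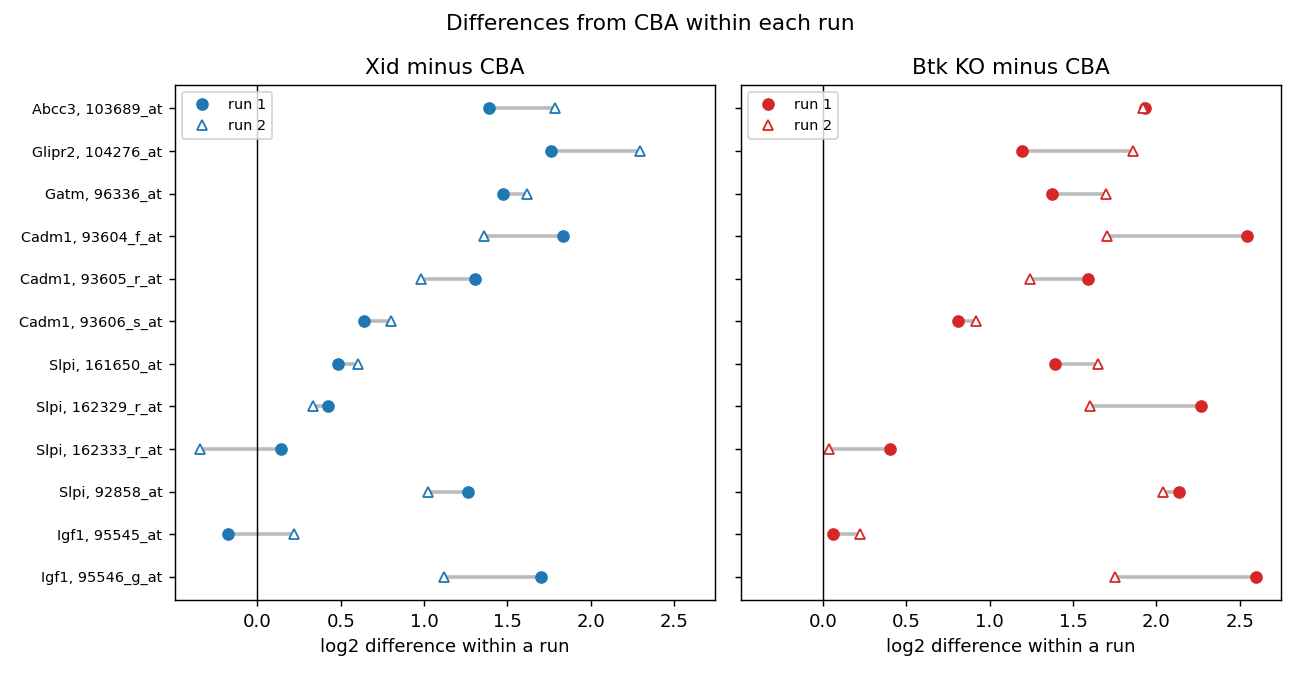
Log2 difference from CBA within run 1 (filled circles) and within run 2 (open triangles) for the 12 probe sets, Xid on the left and Btk KO on the right. All 12 probe sets are above 0 in both runs in Btk KO and 10 of 12 in Xid; Igf1 95545_at and Slpi 162333_r_at cross 0 in Xid.

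Over the 12 probe sets, both Xid arrays lay above both CBA arrays on 9, and both Btk KO arrays did on 11. Among all 7453 probe sets that passed the filter, 17% did so in Xid and 20% in Btk KO; the genes were chosen on these contrasts, so nothing is read from the excess. In both runs 10 of the 12 were higher in Xid and 12 of 12 in Btk KO, which describes the choice. The differences of Igf1 95545_at and Slpi 162333_r_at were inside 1 SE, so the description of the genes as higher in the mutant lines does not extend to these probe sets. The Xid and Btk KO differences share the CBA arrays.

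The contrast that did not choose the genes is Btk KO against Xid, although it uses the same mutant arrays. No probe set of the 6 genes passed there: limma called 0 of 11 with or without the run block, against 3 of 7453 probe sets, 0.0403%, and 14 with the block, 0.188%. The 11 include Cadm1 93605_r_at, which passed the filter only through the mutant arrays. At an unadjusted p under 0.05 there were 3 of 11, or 4 with the block, where 3.61% of all probe sets passed without the block and 7.31% with it. The genes were chosen on values of these same mutant arrays, so nothing is read from that excess either. Slpi came nearest. On 161650_at the Btk KO mean was 1.98-fold that of Xid, a log2 difference of 0.97 with a 95% confidence interval of 0.53 to 1.42 (limma adjusted p = 0.52, and 0.15 with the block). On 92858_at it was 0.94, from 0.26 to 1.62 (limma adjusted p = 0.998, and 0.17 with the block), and both Btk KO arrays lay above both Xid arrays on each of these sets. Igf1 95546_g_at differed by 0.76, from 0.10 to 1.42 (limma adjusted p = 0.998, and 0.57 with the block), with both Btk KO arrays again on top. In the second run alone the differences were 1.04 for Slpi 161650_at, 1.01 for Slpi 92858_at and 0.63 for Igf1 95546_g_at.

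For the remaining genes the intervals included 0 without the run block. Abcc3 differed between the mutant lines by 0.34 (95% confidence interval -0.16 to 0.84) and Cadm1 93604_f_at by 0.53 (-0.09 to 1.14). In the second run alone these were 0.13 and 0.35, against 0.54 and 0.71 in the first. With the block the Cadm1 interval ran from 0.03 to 1.02. Gatm differed by -0.01, with an interval of -0.56 to 0.54, which still allows a difference of that size in either direction. Glipr2, at -0.50, had an interval of -1.16 to 0.15. In the second run alone Gatm differed by 0.08 and Glipr2 by -0.435. Both Btk KO arrays lay above both Xid arrays on 7 of the 12 probe sets, where 14.2% of all probe sets did, and below on 1, Glipr2, where 12.3% did. These shares are of the 7453 probe sets that passed the filter, which Slpi 162329_r_at, among the 7, did not. Several of the 7 belong to the same gene. The genes were chosen on values of these mutant arrays, so nothing is read from the excess.

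**Figure D3:**
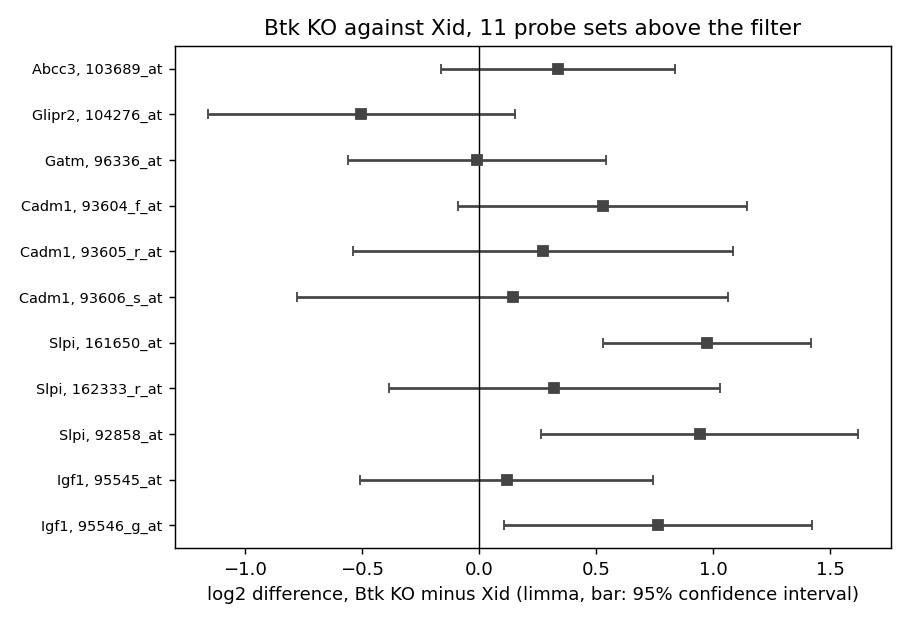
Log2 difference of Btk KO minus Xid for the 11 probe sets above the filter, with squares for the limma estimate and bars for its 95% confidence interval. The intervals of Slpi 161650_at, Slpi 92858_at and Igf1 95546_g_at lie above 0, the other 8 include 0, and none passed after adjustment over 7453 probe sets.

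Genes of the same families and pathways were read from 6 lists, which name 96 genes besides the 6; 65 are on the array and 31 were bright enough to test. Without the run block limma called 0 of the 31 in Xid, 0 in Btk KO and 0 between the mutant lines, with 1, 6 and 2 at an unadjusted p under 0.05. Of all probe sets 0.0671% were called in Xid and 0.174% in Btk KO, and 4.43% and 8.83% had an unadjusted p under 0.05. With the block 1 of the 31 was called in Btk KO and 0 in Xid, where 2.23% and 0.483% of all probe sets were. The median difference of the 31 was 0.19 in Xid and 0.37 in Btk KO, beside 0.01 over all probe sets in each comparison.

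The called gene was Serpinb6a, an intracellular serine protease inhibitor. It read 56.9 and 68.1 in CBA, 149.1 and 160.8 in Xid and 311.0 and 200.2 in Btk KO, so both mutant lines lay above CBA. It rose in Btk KO by 1.90 ± 0.24 (SE) with the block (limma adjusted p = 0.012, and 0.052 without it), and in Xid the difference was 1.24 (limma adjusted p = 0.41 without the block and 0.13 with it). In the second run alone the Btk KO difference was 1.48. Its list, protease inhibitors and the proteases Slpi meets, had 11 measured genes with a median of 0.20 in Xid and 0.56 in Btk KO. Timp1, an inhibitor of metalloproteinases, differed by 1.13 in Btk KO (87.7 and 50.7 in CBA against 155.3 and 152.5) and Timp2 by 0.77, and neither passed. Elane, neutrophil elastase, differed by 0.93 in Xid and by 0.27 in Btk KO, where it was -0.47 in the first run and 1.01 in the second, and it did not pass.

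In the IGF list 7 genes were measured, with a median of 0.29 in Xid and 0.18 in Btk KO, and none passed (0 with limma in either fit). The largest difference among them was that of Socs2, a suppressor of cytokine signalling that damps the growth hormone pathway. It read 17.7 and 16.9 in CBA, 32.2 and 26.9 in Xid and 46.7 and 41.8 in Btk KO, in the same order of groups as Igf1 95546_g_at (1.11 in Btk KO, limma adjusted p = 0.28, and 0.12 with the block). Igf1r, the receptor, differed by 0.18 in Btk KO. Irs2, an adaptor of the receptor, differed by 0.72, with 1.09 in the first run and 0.35 in the second, and Igf2r, which clears Igf2, by 0.48. The binding proteins Igfbp1, Igfbp2, Igfbp3, Igfbp4, Igfbp6 and Igfbp7 were too dim to test.

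The creatine and arginine list had 8 measured genes and a median of 0.16 in Xid and 0.28 in Btk KO. Gamt, which makes creatine from the product of Gatm, differed by 0.08 in Xid and 0.19 in Btk KO, with overlapping Btk KO and CBA arrays. The probe set of Gamt carries the suffix f, a type whose probes may match related sequences. Ckb, the brain type creatine kinase, read 95.8 and 124.2 in CBA and 218.3 and 220.4 in Btk KO, a difference of 0.97 (limma adjusted p = 0.27, and 0.095 with the block). The arginine synthesis genes Asl and Ass1 differed by 0.87 and 0.37 in Btk KO and did not pass. Asl is read by a probe set with the suffix r, picked under relaxed rules. Of the relatives of Abcc3, 4 of 14 could be tested. Abcg2, another exporter, differed by 0.81 in Btk KO and Abcc5 by 0.41. Abcb4 differed by 0.60, with 1.20 in the first run and -0.01 in the second, and Abcc1 by -0.84, with -1.81 and 0.13. None passed (0 with limma in either fit). Of the nectin list only Nectin2 was bright enough, at -0.01 in Btk KO, and of the CAP domain list no gene was.

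By Pearson correlation of the log2 values over the 6 arrays, genes with the pattern most like each of the 6 were listed, 3 for each. With 6 arrays and 7453 probe sets, values near 1 are common, and the arrays share the runs and groups. For Cadm1 they were Snx17 (0.997), Sumo3 (0.996) and Vcam1 (0.989), an adhesion molecule of macrophages and endothelium whose probe set here had means of 22.2 in CBA, 77.1 in Xid, then 129 in Btk KO. Slpi was followed by Mki67 (0.984), H2-M3 (0.984) and Pla2g7 (0.979). Pla2g7, a secreted phospholipase of macrophages that degrades platelet activating factor, had means of 28.5, 44.6 and 73.4. For Abcc3 the genes were Cops8, Tubb2a and Smad1 (0.989 each), with Tubb2a at 107 in CBA, 200 in Xid, then 226 in Btk KO.

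The genes most like Gatm were Tenm4 (0.984), Dnajb9 (0.981) and Oser1 (0.979). Dnajb9, a chaperone partner of the endoplasmic reticulum, had means of 117 in CBA, 215 in Xid, then 235 in Btk KO. Glipr2 was followed by Rnf20 (0.996), Cd151 and Pepd (0.988 each), whose means were likewise highest in Xid, at 159, 179 and 60.2. For Igf1 the brighter probe set 95545_at gave Cox8c (0.986), Cwc15 (0.985) and Mthfd2 (0.980), whose groups overlapped. The dimmer Igf1 probe set 95546_g_at, added after its values were seen, gave Cfp (0.996), Snx17 (0.995) and Kif2a (0.993). Cfp, properdin of the alternative complement pathway, had means of 340 in CBA, 554 in Xid, then 788 in Btk KO. No cell type is read from the like genes. Many of the like genes shared the order of groups but not the size of the differences. Snx17, for one, had means of 56.1, 64.1 and 68.1.

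Markers of other spleen cells were read from 9 lists, and none of the 6 genes (0) is itself on them. Macrophage markers were higher in both mutant lines. Of 22 macrophage markers 20 are on the array and 16 were measured, while Marco, Siglec1, Axl and Fcgr3 were dim on it. The summed intensity of the 16 was 2799 and 4219 in CBA, 6342 and 10020 in Xid and 9824 and 13250 in Btk KO. Their median difference was 1.17 in Xid and 1.67 in Btk KO, and 14 were higher in both runs in Xid and 15 in Btk KO. For counts of markers higher or lower in both runs, here and below, the share over all probe sets was not computed. Such counts only describe the lists. With limma 0 passed in Xid and 3 rose in Btk KO, and with the run block 7 rose in Xid and 10 in Btk KO. Among all probe sets 0.0134% rose in Xid and 0.161% in Btk KO, and with the block 0.362% and 1.42%. Mrc1, the mannose receptor of macrophages, read 37.4 and 38.4 in CBA, 99.3 and 145.6 in Xid and 287.2 and 246.5 in Btk KO. Adgre1 read 36.0 and 26.4, then 52.3 and 102.2, then 90.4 and 173.4. C1qa overlapped between CBA and Btk KO, at 339.0 and 606.6 against 294.5 and 1975.6, and Lyz2 means were 173 in CBA, 221 in Xid, then 310 in Btk KO. The part of macrophage RNA in the levels of the 6 genes was not tested. A change in the number of cells of a type and a change of RNA per cell cannot be told apart in such preparations.

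Neutrophil markers, 8 measured of 15 with Ltf, Mmp8, Mmp9, Cxcr2 and Ly6g dim, followed another pattern when summed. Their sum was 435 and 365 in CBA, 532 and 385 in Xid and 1096 and 1714 in Btk KO, so Xid overlapped CBA. S100a8 read 50.9 and 64.5 in CBA, 65.4 and 50 in Xid and 267.1 and 629.3 in Btk KO, and Camp 39.4 and 58.8, 56.3 and 45.1, then 271.1 and 324.2. Other markers did not follow the sum. Csf3r means were 192.6 in CBA, 199.5 in Xid, then 185.7 in Btk KO. Mpo and Elane overlapped between CBA and Btk KO, and both Xid arrays of Elane lay above CBA. Lcn2 lay above CBA in both mutant lines, with a Btk KO mean 1.38-fold that of CBA. Its probe set carries the suffix r, picked under relaxed rules. With limma 2 of the 8 rose in Btk KO, 4 with the block, and 0 in Xid in either fit. Among all probe sets 0.161% rose in Btk KO, and 1.42% with the block. Ngp, called with the block alone, read 7.4 and 11.2 in CBA, 6.3 and 11.6 in Xid and 40.8 and 258.3 in Btk KO. It passed the filter, at about 19.8, only through its Btk KO arrays. Mpo and Elane, with CBA means of 16.2 and 17.55, passed the filter only through mutant arrays. The part of neutrophil RNA in the levels of Slpi was not tested.

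The 8 NK markers summed to 342 and 481 in CBA, 527 and 799 in Xid and 808 and 1584 in Btk KO, with a median of 0.52 and 1.37. All 8 had both Btk KO arrays above both CBA arrays, where 20% of all probe sets did. With limma 0 of the 8 passed without the block, while 4 rose in Btk KO with it, where 1.42% of all probe sets did. The 5 dendritic cell markers measured had medians of 0.39 and 0.77, and Zbtb46 was dim. Their sums were 292 and 423 in CBA, 378 and 559 in Xid and 527 and 684 in Btk KO. Of 12 stromal markers 4 were measured, with medians of 0.48 and 0.28 and sums of 298 to 332 in CBA, 406 in Xid and 384 to 395 in Btk KO. The collagen gene Col3a1 was among the 8 dim ones. The 9 erythroid markers had medians of 0.29 and 1.40, and their sum was 22170 on the Btk KO array of the first run and 11060 on that of the second, against 5933 to 9386 elsewhere. Hba-a1 read 13054.9 and 6371.9 in Btk KO. T cell markers, 4 measured of 10, had medians of 0.18 and 0.50, and all 4 were higher in both runs in Btk KO. With limma 0 passed without the block, and with it Zap70, a kinase of the T and NK cell receptors, rose in Btk KO by 1.42 (limma adjusted p = 0.012). Cd3e overlapped between all groups. The single platelet marker measured differed by -0.10 and -0.04.

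B cell markers went the other way in Btk KO. Of 9 measured, 7 were lower in both runs there, with a median of -0.52, against -0.13 in Xid. With limma 0 passed in either fit. Of all probe sets 0.174% were called in Btk KO and 0.0671% in Xid, in either direction, and 2.23% and 0.483% with the block. Cd79a, a chain of the B cell receptor complex, read 5287.4 and 6004.4 in CBA, 5533.1 and 4438.1 in Xid and 3066.3 and 3982.2 in Btk KO. Ms4a1 means were 4576 in CBA, 4776 in Xid, then 3818 in Btk KO, so B cell transcripts were bright on every array. The part of these lists in the levels of the 6 genes was not tested.

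**Figure D4:**
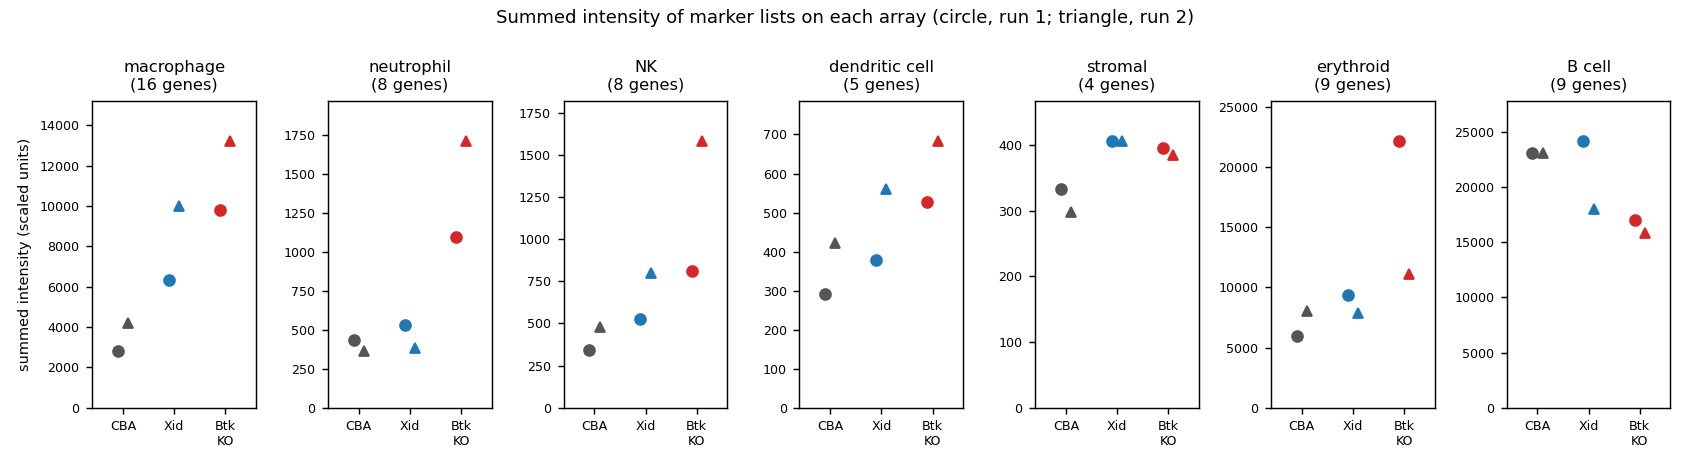
Summed intensity (scaled units, linear axes from 0) of the measured markers of 7 cell types on each array, with circles for run 1 and triangles for run 2. Macrophage sums lie above CBA in both mutant lines, neutrophil sums in Btk KO alone, and B cell sums are lowest in Btk KO.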

How the data were processed

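Gene expression in whole splenic B cells was measured on 6 arrays, 2 each for CBA, Xid and Btk KO. For each array the deposited table lists a linear intensity for every probe set, with no detection call. No source names the authors' software or summary method. The values had been scaled before deposit, with a 2% trimmed mean near 100 on each array, and no further scaling was applied. From the experiment information, of which the other settings were not used, the chip lot and the hybridisation day were taken per the file headers.

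Of 12488 probe sets 66 are controls. The probe annotation names 1 gene for 10833 of the others, several for 396 and none for 1193, and 10817 were given current symbols from RefSeq genes on GRCm38.p6. Promoter windows came from RefSeq (GRCm38.p6). A pseudocount of 6, which is the 20th percentile over the table, was added before log2. Probe sets with a mean below the 40th percentile, an intensity of about 19.8, were left out, which kept 7453. A single group-means model covered the 3 comparisons, with limma 3.58.1 (R 4.3.3; lmFit, eBayes with an intensity trend), which leaves 3 residual degrees of freedom. Tests were two-sided, with Benjamini-Hochberg adjustment over the 7453 probe sets and a threshold of 0.05. The fit was tested on simulated data. Where a gene has several probe sets, the list counts use the brightest by mean over all arrays, and every probe set of the 6 genes is printed. Figures were drawn with matplotlib 3.10.9.

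Same-numbered arrays belong to the same run. The design text tells of a first set of 3 chips followed by 3 more, the chip lots split the same way per the file headers, and deviations from the group means correlated within a run at 0.31, 0.37 and 0.44 for the 3 pairs of groups. A fit that adds the run as a block was therefore an alternative. The others were quantile normalization, median centring, pseudocounts of 1 and 32, no filter, a filter at the 60th percentile, no intensity trend, and each array left out.

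The 6 genes, the family and marker lists and the rule for naming genes were chosen with earlier results of these data known. The rule names every probe set of the 6 genes, Btk, in each family list the genes called in any fit and up to 3 with the smallest p in Btk KO against CBA, the 3 genes most like each of the 6, and the markers Cd79a, Ms4a1, Cd3e, Mrc1, Lyz2, Adgre1, C1qa, S100a8, Camp, Col3a1 and Hba-a1. Abcc1, Gamt, Elane, Igf1r, Zap70, Ngp, Csf3r, Mpo, Lcn2 and the dim genes were named outside that rule after their values were seen.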

Additional observations from a re-analysis of the deposited data

Results flagged for a closer look

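A probe set of Slpi that fell under the filter on dim probe sets, 162329_r_at, had a signal above that of the CBA control arrays, where it read 1.9 and 3.9. Its mean intensity was 5.55 in Xid and 28.1 in Btk KO (n = 2 each). It was left out of every fit that used the filter, and its result in the fit without a filter was not read. Its Xid level is within the dim range.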

How the results depend on the processing

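The counts of calls depended on the setting. With the run added as a replicate block the calls were 14 in Btk KO against Xid, 36 in Xid against CBA and 166 in Btk KO against CBA, against 3, 5 and 13 without it, and 1 family gene in place of 0 in Btk KO against CBA. A pseudocount of 32 gave 8, 8 and 24 and 1 family gene, and a pseudocount of 1 gave 3 in Xid against CBA. In Btk KO against CBA quantile normalization, median centring and no filter each gave 8, the 60th percentile filter 29 and 1 family gene, and the fit without a trend 0, with 656 at an unadjusted p under 0.05. With 1 array left out, where the lone array of a group is assumed to vary like the others, the counts ran from 0 to 29, 0 to 9 and 0 to 145, and for family genes in Btk KO against CBA from 0 to 1. In Btk KO against CBA limma called 0 without either CBA array or either Xid array (391 to 573 at an unadjusted p under 0.05), 12 without the Btk KO array of run 1 and 145 without that of run 2. Btk KO against Xid gave 0 without either CBA array or the first Xid array, 1 without the second Xid array, 5 without the first Btk KO array and 29 without the second. Xid against CBA gave 0 without either CBA array or the first Xid array, 1 without the second, and 9 without either Btk KO array. The causes were not tested.

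Of the probe sets of the 6 genes, a dim one of Slpi, not read in the fit without a filter, is left out here. In Btk KO against Xid, those of the 14 alternatives with all 6 arrays called 0 of the 11 kept probe sets. Of 152 alternative values for their differences in that comparison 6 changed sign, all with an array left out, where Cadm1 93606_s_at ranged from -0.27 to 0.55, Igf1 95545_at from -0.20 to 0.43 and Gatm from -0.0782 to 0.0603. Against CBA 13 of 152 values moved by over 1 SE in Xid and 9 in Btk KO, and 4 and 1 changed sign. Sign changes with an array left out also met Btk (-0.33 to 0.0545), Abcc5 (-0.18 to 0.0068), Ckb (-0.0359 to 0.50), Timp2 (-0.17 to 0.44), Igf2r (-0.0136 to 0.62) and Irs2 (-0.31 to 1.37) in Xid, and Nectin2 in Btk KO (-0.51 to 0.48, and 0.0096 with a pseudocount of 32). Serpinb6a passed in Btk KO with the block, a pseudocount of 32, the stricter filter and without Btk KO of run 2.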
